A study of Mus musculus with 18 samples.

Results

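Contacts of the *Lhx1* promoter with 8 developmental regulators lying far away on the same chromosome were examined: *Otx1*, *Dlx3*, *Dlx4*, *Meis1*, *Meox1*, *Sox9*, *Neurod2* and *Tbx21*. They are 8 of the 1588 annotated protein-coding genes of mouse chromosome 11 that lie more than 2 Mb from *Lhx1*. Each gene was taken as its annotated body plus 10 kb to either side, and all DpnII restriction fragments overlapping that window were counted, which gave 808 of 285599 far fragments. The windows of *Dlx3* and *Dlx4* share 15 fragments. These were counted once in every pooled value except the profile around the start sites, where they were counted for each gene. *Lhx1* lies at chr11:84331479-84338923 on the minus strand of mm9, the build of every coordinate given here unless another is named.

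The data are NG Capture-C interaction profiles, in which crosslinked chromatin is cut with DpnII, ligated, and enriched with oligonucleotides for one chosen fragment, the viewpoint, so that each sequenced ligation partner is a contact of that viewpoint. Promoter viewpoints were captured in 9 libraries, 3 from each of 3 cell types. Mouse embryonic stem cells (ESC) and definitive endoderm (DE) were both of strain 129/Sv//EV, ESC at day 0 and DE at day 5 of differentiation through embryoid bodies with activin A and EGF. Erythrocytes, also labelled day 5, came from the spleens of C57BL/6 mice. The mice had been treated with phenylhydrazine, a drug that provokes anaemia and fills the spleen with red cell precursors. Strain and source therefore cannot be told apart from cell type in any comparison with erythrocytes, and no expression was measured here by which the cell types could be checked. The alpha-globin (Hba) promoter, captured from the same libraries and lying on the same chromosome, was the control viewpoint.

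*Lhx1* encodes a LIM homeodomain transcription factor needed to form the head organiser and the anterior mesendoderm, and it is known to be silent in ESC and active in DE. In ESC many silent developmental genes carry polycomb repressive complexes and the histone mark H3K27me3 at CpG-rich promoters, and such promoters are known to contact each other over long distances. The 8 genes examined all encode developmental transcription factors, with homeodomain, HMG-box, basic helix-loop-helix or T-box DNA-binding domains.

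Promoter sequences are shown for the viewpoint and for the members whose promoter was in the RefSeq table used here (GRCm38.p6), which were 3 of 8, *Neurod2*, *Meis1* and *Tbx21*. Shown are the 250 bases before the start site, 5′ to 3′ on the coding strand, by the start sites of that table, which can differ from the annotated starts used for the windows (for *Lhx1* the stretch lies upstream of its annotated start by over 100 bases), with every CG dinucleotide, the target of DNA methylation and the hallmark of CpG islands, in capitals. Each sequence had 1 exact match on chromosome 11 of mm9, all on the minus strand: *Lhx1* at chr11:84339037-84339286, *Neurod2* at chr11:98190960-98191209, *Meis1* at chr11:18918973-18919222 and *Tbx21* at chr11:96976646-96976895.
Lhx1 promoter: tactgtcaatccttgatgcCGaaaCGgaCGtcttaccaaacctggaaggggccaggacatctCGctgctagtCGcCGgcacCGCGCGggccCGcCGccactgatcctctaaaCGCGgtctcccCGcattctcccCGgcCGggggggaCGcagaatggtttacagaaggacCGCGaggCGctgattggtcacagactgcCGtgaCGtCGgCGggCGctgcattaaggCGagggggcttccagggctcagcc
Neurod2 promoter: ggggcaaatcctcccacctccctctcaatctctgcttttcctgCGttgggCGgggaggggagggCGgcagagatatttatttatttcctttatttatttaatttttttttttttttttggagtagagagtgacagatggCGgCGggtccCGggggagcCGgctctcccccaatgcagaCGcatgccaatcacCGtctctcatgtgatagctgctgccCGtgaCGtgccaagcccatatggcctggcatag
Meis1 promoter: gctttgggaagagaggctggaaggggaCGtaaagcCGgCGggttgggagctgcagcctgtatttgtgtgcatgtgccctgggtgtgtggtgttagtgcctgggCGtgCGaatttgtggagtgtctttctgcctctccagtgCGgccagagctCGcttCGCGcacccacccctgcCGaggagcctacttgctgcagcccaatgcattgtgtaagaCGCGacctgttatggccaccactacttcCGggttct
Tbx21 promoter: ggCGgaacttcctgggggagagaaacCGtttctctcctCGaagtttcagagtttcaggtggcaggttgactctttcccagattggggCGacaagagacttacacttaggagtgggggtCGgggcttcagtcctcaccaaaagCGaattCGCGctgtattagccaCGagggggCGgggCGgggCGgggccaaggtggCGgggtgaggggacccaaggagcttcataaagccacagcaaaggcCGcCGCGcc
CG, which reads the same on both strands, occurred 26 times in the *Lhx1* stretch, and 9.59% of the 32851 promoters in the table held as many. *Tbx21* held 16, *Meis1* 13 and *Neurod2* 11, against a median of 6 over all promoters, and 92.1% of promoters held at least 1. As many as these were held by 25.4%, 31.5% and 35.6% of promoters, in that order. The DpnII site GATC, also the same on both strands, was present once in the *Lhx1* stretch and absent from the stretches of the 3 members. It occurred in 41.9% of all promoters of that length.

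Depth set the precision of what follows. Read totals at the *Lhx1* viewpoint ranged from 12869 to 22107 for ESC, from 29621 to 44816 for DE and from 4258 to 24682 for erythrocytes. Of these, 6968 reads in ESC, 15389 in DE and 6378 in erythrocytes fell on chromosome 11 beyond 2 Mb, summed over the 3 libraries of each. One erythrocyte library, replicate 2, stood apart from its group, with 73.3% of its *Lhx1* reads on chromosome 11 against 37.8% and 38.1% in the others. In erythrocytes a single read was worth between 10.6 and 32.0 reads per 100000 chromosome 11 interactions, so that values of single genes there rest on very few reads.

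Pooled over the 8 windows, the *Lhx1* promoter contacted the regulators more often in ESC than in either other cell type. In ESC the windows took 1.07%, 1.38% and 1.14% of far chromosome 11 reads in replicates 1, 2 and 3, a mean of 1.20% ± 0.162 (SD, n = 3) from 86 reads on 68 fragments. In DE they took 0.523%, 0.395% and 0.244%, with a mean of 0.388% ± 0.140 (SD, n = 3) from 61 reads. In erythrocytes they took 0.267%, 0.534% and 0.629%, with a mean of 0.477% ± 0.188 (SD, n = 3) from 24 reads. Every ESC library lay above every DE and every erythrocyte library, whereas DE and erythrocyte libraries overlapped. The log2 ratio of the means was -1.63 for DE against ESC, -1.33 for erythrocytes against ESC and 0.30 for erythrocytes against DE, and without erythrocyte replicate 2 the second was -1.42. Erythrocytes had more of their chromosome 11 reads beyond 2 Mb (38.7% ± 7.22, SD, n = 3) than ESC (23.1% ± 0.185), and as a share of all chromosome 11 reads the second was -0.64, still without overlap. The windows hold 0.283% of all far fragments, so DE and erythrocytes lay closer to this level than ESC did. No p-value is given for the pooled share, because the members were chosen with results of these data known. In a population of cells, fewer cells with a contact and a rarer contact in each cell cannot be told apart.

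**Figure D1:**
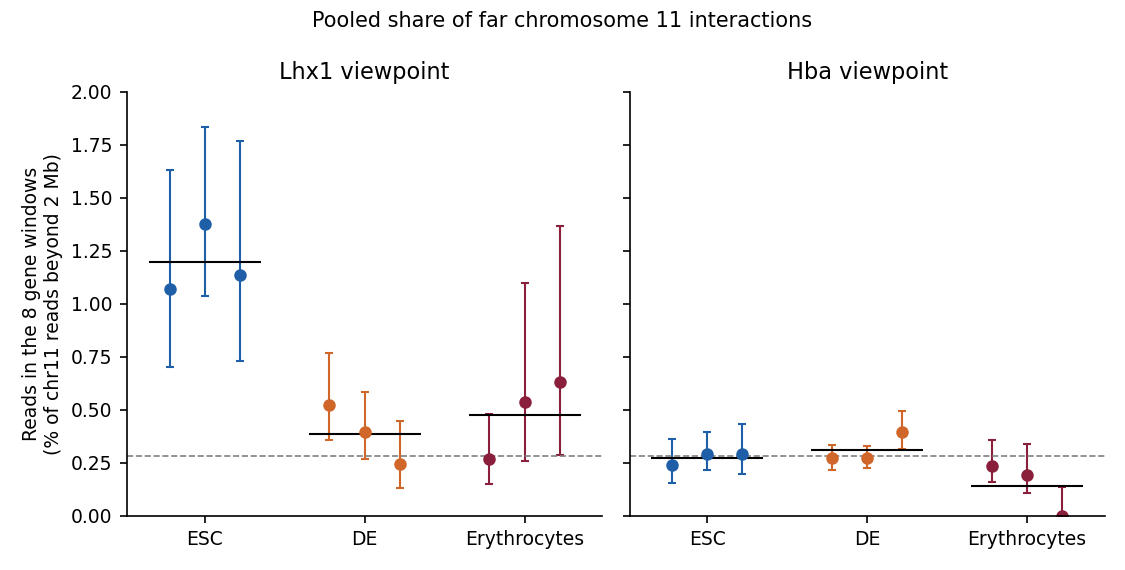
Share of chromosome 11 reads beyond 2 Mb of the viewpoint that fell in the 8 gene windows (y axis, percent), for the Lhx1 (left) and Hba (right) viewpoints in ESC, DE and erythrocytes. Points are single libraries with 95% Wilson intervals for counting error, black lines are means of 3 libraries and the dashed line is the share of far fragments in the windows (0.283%); at Lhx1 the ESC libraries, between 1.07% and 1.38%, lie above all others.

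At the Hba viewpoint the whole windows took similar shares in ESC and DE. They took 0.238%, 0.292% and 0.293% of far reads in the ESC libraries, a mean of 0.274% ± 0.0316 (SD, n = 3). In DE the mean was 0.312% ± 0.0722 (SD, n = 3), with libraries between 0.270% and 0.396%, so ESC and DE overlapped. In erythrocytes the values were 0.237%, 0.190% and 0 of 2823 reads, where 0 reads allow a share of up to 0.106%. All 3 lay below the lowest ESC library, the highest of them narrowly, and the log2 ratio of the means was -0.95, or -0.36 without replicate 3. *Meis1*, the second closest member to Hba at 13.26 Mb, gave 53 of the 86 ESC reads and 186 of the 260 DE reads at this viewpoint. The log2 ratio of DE to ESC was 0.19, and without *Meis1* it was -0.30, with overlap in both cases. The share at *Lhx1* divided by that at Hba was 4.51, 4.73 and 3.87 in the ESC libraries, against 1.94, 1.46 and 0.617 in DE, again without overlap. For erythrocytes the ratio was 1.13 and 2.81 in replicates 1 and 2, and replicate 3 gave no ratio.

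In ESC, the reads lay close to the start sites. Of the ESC reads in the windows, 49 of 86 (57.0%) fell within 5 kb of an annotated start site, a zone holding 21.0% of the window fragments. In DE the figure was 23 of 61 reads (37.7%), and in erythrocytes 1 of 24 (4.17%). At the Hba viewpoint it was 17.4% in ESC, 7.31% in DE and 23.5% in erythrocytes. When only these 5 kb zones were pooled, DE lay below ESC by a log2 ratio of -2.24 and erythrocytes by -6.42, the latter resting on 1 read. At Hba the same zones were also lower in DE, by a log2 ratio of -1.19 and without overlap, from 15 reads in ESC and 19 in DE. Aligned on the start sites and read in the direction of transcription, the first 10 kb downstream held 78.6 ± 7.61 (SD, n = 3) reads per 100000 chromosome 11 interactions and per 100 fragments in ESC. The same bin held 12.9 ± 5.53 in DE and 34.8 ± 17.4 in erythrocytes, the latter from 10 reads.

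**Figure D2:**
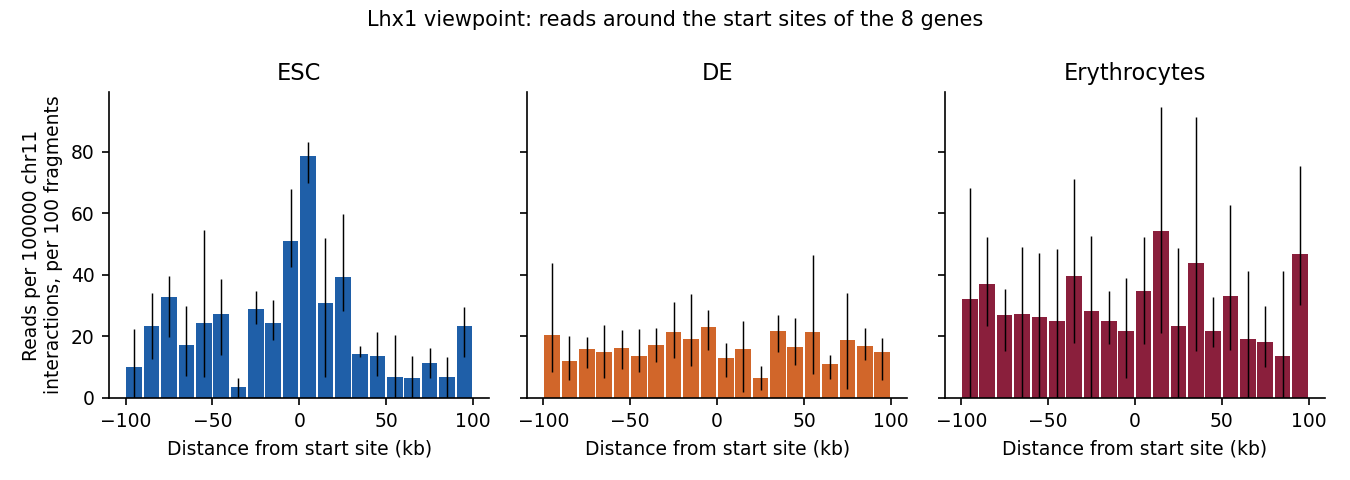
Reads of the Lhx1 viewpoint around the start sites of the 8 genes, in 10 kb bins (x axis, distance in kb, positive in the direction of transcription), as reads per 100000 chromosome 11 interactions and per 100 fragments (y axis). Bars are means of 3 libraries and lines span the lowest to the highest library; the highest ESC bin, 0 to 10 kb, has a mean of 78.6, and DE shows 12.9 in that bin.

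Relative to their surroundings, the windows were also enriched in ESC. From the reads per fragment in the 1 Mb to either side, member windows left out, 22.4 reads were expected in ESC, 49.0 in DE and 19.1 in erythrocytes, against 86, 61 and 24 observed. The per-library ratio was 3.75 ± 0.560 (SD, n = 3) in ESC, between 3.14 and 4.23. It was 1.22 ± 0.432 (SD, n = 3) in DE and 1.57 ± 0.601 (SD, n = 3) in erythrocytes, whose highest libraries, at 1.67 and 2.06, lay below the lowest of ESC. At Hba the ratio was 1.41 ± 0.109 (SD, n = 3) in ESC and 1.39 ± 0.283 (SD, n = 3) in DE. Taken singly and summed over the libraries, *Otx1* had 24.9 times and *Sox9* 16.7 times the reads of its surroundings in ESC. These rest on 10 reads against 0.401 expected and 20 against 1.20. *Neurod2*, *Dlx4*, *Meis1* and *Dlx3* had between 3.59 and 7.94 times. *Tbx21* and *Meox1* lay below theirs, at 0.136 and 0.337 times. In DE *Otx1* had 4.33, *Meis1* 2.56, *Neurod2* 1.77 and *Meox1* 1.34 times, and the rest lay between 0.497 (*Sox9*) and 0.948 (*Dlx3*). The flanks of *Tbx21* hold part of the *Hoxb* cluster, itself rich in *Lhx1* contacts.

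To place single genes among all others, limma was fitted to every gene window of chromosome 11 beyond 2 Mb with at least 10 reads in the libraries compared, on log2 of reads per 100000 chromosome 11 interactions plus 10. For DE against ESC this tested 849 windows, and 1 passed the adjusted threshold of 0.05 (0.118% of those tested). That window was *Sox9*. Of the 8 members 7 were tested, and *Tbx21*, with 9 reads, was not. The tested members had a median log2 difference of -0.996, beside a median of 0.27 over all windows, and 6 were lower and 1 higher in DE. Unadjusted p-values were under 0.05 for 2 of the 7 members and for 138 of the 849 windows. In 4 of the 7, *Sox9*, *Dlx3*, *Dlx4* and *Otx1*, all DE libraries lay below all ESC libraries, a pattern found in 6.6% of all windows tested. Since a window passes the read minimum through the cell type where it is high, these counts describe the members and do not set them apart.

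**Figure D3:**
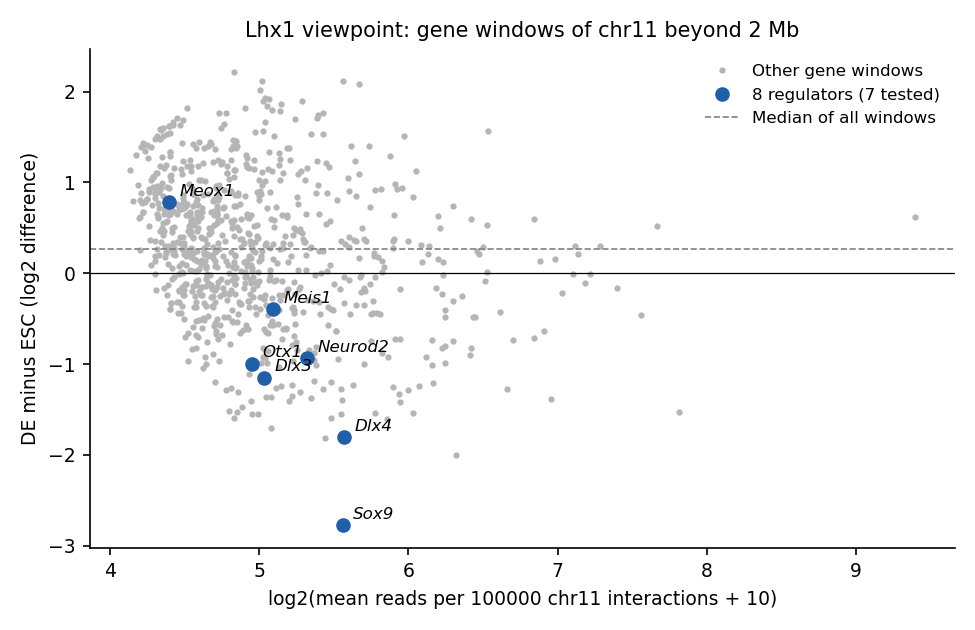
Difference between DE and ESC at the Lhx1 viewpoint (y axis, log2 difference) against the mean level (x axis, log2 of mean reads per 100000 chromosome 11 interactions plus 10) for the 849 gene windows tested. Blue points are the 7 regulators tested, grey points all other windows and the dashed line the median of all windows (0.27); Sox9, at -2.77, is the lowest point.

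*Sox9*, an HMG-box factor that directs cartilage, testis and neural crest development, lies at chr11:112643538-112649074 on the plus strand, 28.3 Mb from *Lhx1*. Its window collected 5, 7 and 8 reads in the ESC libraries, 1, 0 and 0 in DE, and 0, 0 and 3 in erythrocytes. All ESC libraries were above all DE libraries, and erythrocyte replicate 3 reached the ESC range with 3 reads on a pair of adjacent fragments. Per 100000 chromosome 11 interactions the level was 72.7 ± 33.7 (SD, n = 3) in ESC, 1.73 ± 3.00 in DE and 31.9 ± 55.3 in erythrocytes. *Sox9* fell in DE, with a log2 difference of -2.77 ± 0.58 (SE, limma, adjusted p = 0.027), the lowest of all 849 windows. As summed reads, 20 in ESC against 1 in DE correspond to a ratio of 39.5 with a 95% exact counting interval from 6.33 to 1639. The call rests on few reads: it held under 7 of 17 alternative settings, with adjusted p between 0.000468 and 0.545, and under 1 of the 6 fits that each left out a library. The direction was the same in all 17. The fragment that holds the start site, chr11:112641408-112644074, took 4 of the 20 ESC reads and none in the other cell types. At Hba the window had 2 reads in ESC and 11 in DE, with a log2 difference of 0.22 ± 0.29 (SE, limma, adjusted p = 0.782).

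The paired *Dlx3* and *Dlx4* genes, homologues of fly *Distal-less* that act in placenta, skin, teeth and craniofacial skeleton, lie next to each other in opposite orientation, 10.64 and 10.67 Mb from *Lhx1*. *Dlx4* (chr11:95001770-95007577, minus strand) collected 6, 14 and 2 reads in ESC, 1, 3 and 2 in DE, and 1, 3 and 0 in erythrocytes. Its level was 65.0 ± 34.95 (SD, n = 3) per 100000 in ESC and 10.0 ± 4.18 in DE, without overlap. The log2 difference was -1.80 ± 0.59 (SE, limma, adjusted p = 0.197), the fourth lowest of all windows, and it did not pass the threshold. With edgeR on recovered reads it did (-2.68, adjusted p = 0.0375), as it did with a pseudocount of 50 (-0.89, limma, adjusted p = 0.0345). Erythrocytes, at 35.6 ± 52.7 (SD, n = 3), overlapped both, and their highest value was that of replicate 2. The start site fragment of *Dlx4* held 3 of its 22 ESC reads.

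*Dlx3* (chr11:94981403-94986610, plus strand) collected 2, 8 and 2 reads in ESC, 3, 2 and 1 in DE, and 2, 1 and 1 in erythrocytes. Per 100000 this was 35.6 ± 17.4 (SD, n = 3) in ESC, 10.0 ± 4.90 in DE and 28.4 ± 6.17 in erythrocytes. DE lay below both other cell types in every library, whereas ESC and erythrocytes overlapped. Erythrocyte replicates 2 and 3 held 1 read each, which alone gave 32.0 and 31.9, above the highest DE library (15.6). The log2 difference of DE from ESC was -1.15 ± 0.57 (SE, limma, adjusted p = 0.315), and that of erythrocytes from DE was 0.96 ± 0.69 (SE, limma, adjusted p = 0.687).

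*Otx1*, an orthodenticle homeobox gene of forebrain and sense organ development, lies at chr11:21894767-21902900 on the minus strand, 62.44 Mb from *Lhx1*. It collected 4, 5 and 1 reads in ESC, 1, 3 and 2 in DE, and none in any erythrocyte library. Levels were 31.8 ± 16.6 (SD, n = 3) per 100000 in ESC and 10.0 ± 4.18 in DE, and the 3 cell types did not overlap. The lowest ESC library (13.9) rested on 1 read and the highest DE library (12.6) on 2 reads. In erythrocyte replicate 2, 1 read was worth 32.0 per 100000, more than any DE library, so 0 reads cannot place it below DE. The same holds for replicate 3 (31.9). With 6 reads, *Otx1* was not tested for erythrocytes against DE, where 7.12% of windows tested lay lower without overlap. Against 0 of 15646 chromosome 11 reads in erythrocytes, with a floor of 3 reads over the group, the ESC level was at least 1.73-fold higher. The limma difference was -0.996 ± 0.58 (SE, adjusted p = 0.425) for DE against ESC and did not pass in either comparison with ESC (adjusted p = 0.221 for erythrocytes). *Otx1* is only 10.28 Mb from Hba, and there its level was 9.39 ± 7.26 (SD, n = 3) in ESC and 11.2 ± 2.81 in DE.

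*Meis1*, a TALE homeodomain cofactor of Hox proteins that also maintains haematopoietic stem cells, has the longest window (158.5 kb; gene at chr11:18780433-18918961, minus strand) and is the most distant, at 65.42 Mb. It collected 2, 5 and 2 reads in ESC, 5, 5 and 2 in DE, and 1, 0 and 0 in erythrocytes. ESC (28.6 ± 5.71 per 100000, SD, n = 3) and DE (19.6 ± 6.69) overlapped, with a log2 difference of -0.40 ± 0.57 (SE, limma, adjusted p = 0.811). All erythrocyte libraries lay below all ESC and all DE libraries, yet neither difference passed (limma, -1.59 ± 0.68, adjusted p = 0.284, against ESC, and -1.19 ± 0.71, adjusted p = 0.678, against DE). In erythrocyte replicates 2 and 3, 1 read was worth 32.0 and 31.9 per 100000. That is more than any DE library (at most 25.9) and the lowest ESC library (23.4), so 0 reads cannot place them below. At Hba *Meis1* was higher in every DE library (68.2 ± 19.7, SD, n = 3) than in any ESC library (39.1 ± 10.6), the 1 member of 5 tested there with such a pattern, which 14.2% of all windows showed. Its log2 difference there was 0.67 ± 0.29 (SE, limma, adjusted p = 0.421).

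*Neurod2*, a basic helix-loop-helix factor of differentiating neurons, lies at chr11:98186729-98190962 on the minus strand, 13.85 Mb away. It collected 2, 9 and 3 reads in ESC, 5, 5 and 1 in DE, and 2, 0 and 1 in erythrocytes. The level was 42.5 ± 19.6 (SD, n = 3) per 100000 in ESC, 17.5 ± 10.1 in DE and 17.7 ± 16.3 in erythrocytes. One ESC library lay within the DE range, and the difference was -0.94 ± 0.58 (SE, limma, adjusted p = 0.46). None of the reads fell on the fragment with its start site, in any cell type.

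The last members, *Tbx21* and *Meox1*, did not share the pattern. *Tbx21*, which encodes the T-box factor T-bet of T helper 1 cells, lies at chr11:96959385-96976645, minus strand, 12.64 Mb away, and collected 0, 1 and 0 reads in ESC, 3, 3 and 2 in DE, and 3, 2 and 0 in erythrocytes. All DE libraries (13.5 ± 1.83 per 100000, SD, n = 3) lay above all ESC libraries (2.31 ± 4.01), as in 12.5% of the windows tested. With 1 read in ESC, the ratio of ESC to DE was 0.247, with a 95% exact counting interval from 0.00557 to 1.84. *Meox1*, a homeodomain factor of the somites, lies at chr11:101738824-101755688, minus strand, 17.42 Mb away, and collected 0, 0 and 1 reads in ESC, 7, 4 and 0 in DE, and 2, 1 and 1 in erythrocytes. ESC and DE overlapped for *Meox1*, and the difference was 0.78 ± 0.62 (SE, limma, adjusted p = 0.577). Its erythrocyte libraries, between 21.3 and 32.0, were all above those of ESC, as in 14.8% of the windows tested, though *Meox1* itself had too few reads for that test.

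**Figure D4:**
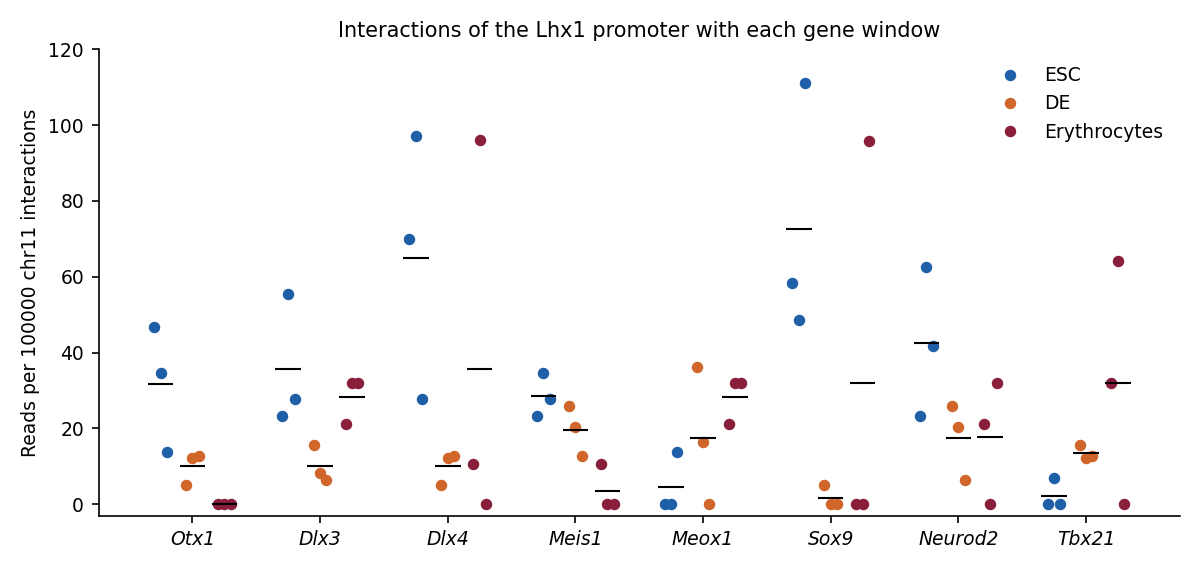
Reads of the Lhx1 viewpoint in each gene window, per 100000 chromosome 11 interactions (y axis), for the 8 genes (x axis). Each point is 1 library, coloured by cell type, and black lines are means of 3; ESC lies above DE without overlap for Otx1, Dlx3, Dlx4 and Sox9, and below DE for Tbx21.

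For erythrocytes against ESC, 466 windows were tested and 1 passed (0.215%), *Hoxb3*, which is no member. Of the 8 members 6 were tested, all lower in erythrocytes, with a median log2 difference of -1.44 beside 0.23 over all windows. *Tbx21* and *Meox1*, with 6 and 5 reads in the libraries compared, fell under the read minimum and were not tested. Their mean levels were higher in erythrocytes (32.0 and 28.4) than in ESC (2.31 and 4.63). A window passes this minimum through the cell type where it is high, so the tested members do not stand for all 8. All erythrocyte libraries lay below all ESC libraries for *Otx1* and *Meis1*, 2 of the 6, against 8.37% of windows tested. Both had 0 reads in erythrocyte replicates 2 and 3, where 1 read was worth more than their lowest ESC library. *Sox9* differed by -1.84 ± 0.97 (SE, limma, adjusted p = 0.4) and *Dlx4* by -1.30 ± 0.93 (SE, limma, adjusted p = 0.542). For erythrocytes against DE, limma called 0 of 829 windows (0%), with 74 at an unadjusted p under 0.05, while edgeR called 9 and DESeq2 called 12. Of the 6 members tested there, 2 were lower and 4 higher, with a median of 0.47 beside -0.14. In that comparison *Meis1* was lower in every erythrocyte library, as were 7.12% of windows, and *Dlx3* was higher in every one, as were 9.41%. In erythrocyte replicates 2 and 3 these orders rest on 0 reads for *Meis1* and 1 for *Dlx3*. There 1 read was worth more than any DE library of either gene.

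At Hba no member was called in any comparison. Limma called 0 of 1326 windows (0%) for DE against ESC, with 145 at an unadjusted p under 0.05, while edgeR called 13 and DESeq2 called 8. It called 89 of 951 (9.36%) for erythrocytes against ESC and 77 of 1346 (5.72%) for erythrocytes against DE. Their directions depended on scaling: 87 were higher and 2 lower in erythrocytes than in ESC, against 15 and 24 with TMM, and 72 were higher and 5 lower than in DE, against 28 and 75 with TMM. The members tested in these comparisons were 5, 2 and 6, with median log2 differences of 0.18, -0.44 and -0.23 beside 0.17, 0.40 and 0.11 over all windows.

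Other genes of chromosome 11 beyond 2 Mb were set beside the members as 3 lists. The 10 *Hoxb* genes, homeobox genes that pattern the body axis, took 1.88% ± 0.539 (SD, n = 3) of far *Lhx1* reads in ESC, 0.662% ± 0.194 in DE and 0.237% ± 0.258 in erythrocytes. A list of 17 other developmental regulators and signals, among them *Tlx3*, *Hand1*, *Nog* and *Wnt3*, took 2.85% ± 0.146, 1.16% ± 0.142 and 0.789% ± 0.226. A list of 20 housekeeping genes, such as those of ribosomal proteins, took 0.972% ± 0.196 in ESC, 1.51% ± 0.442 in DE and 0.897% ± 0.199 in erythrocytes. The lists differ in size: they hold 0.118%, 0.827% and 0.613% of far fragments in that order, beside 0.283% for the members. The level in ESC relative to the flanking 1 Mb was 7.35 for *Hoxb*, 3.60 for the other developmental genes and 0.825 for the housekeeping genes, beside 3.75 for the members. In DE it was 2.55, 1.58 and 1.19, beside 1.22. In limma for DE against ESC, 10 of 10 *Hoxb* windows tested were lower (median log2 difference -1.12). Of the other developmental windows 10 of 15 were lower (-0.84), and of the housekeeping windows 0 of 13 (0.55). None of these windows was called. The 10 *Hoxb* windows overlap within their cluster, with 337 fragments in all, and share reads, so they are not independent counts. The lower level in DE was thus shared by the *Hoxb* and other developmental lists, and nothing here sets the members apart from those.

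**Figure D5:**
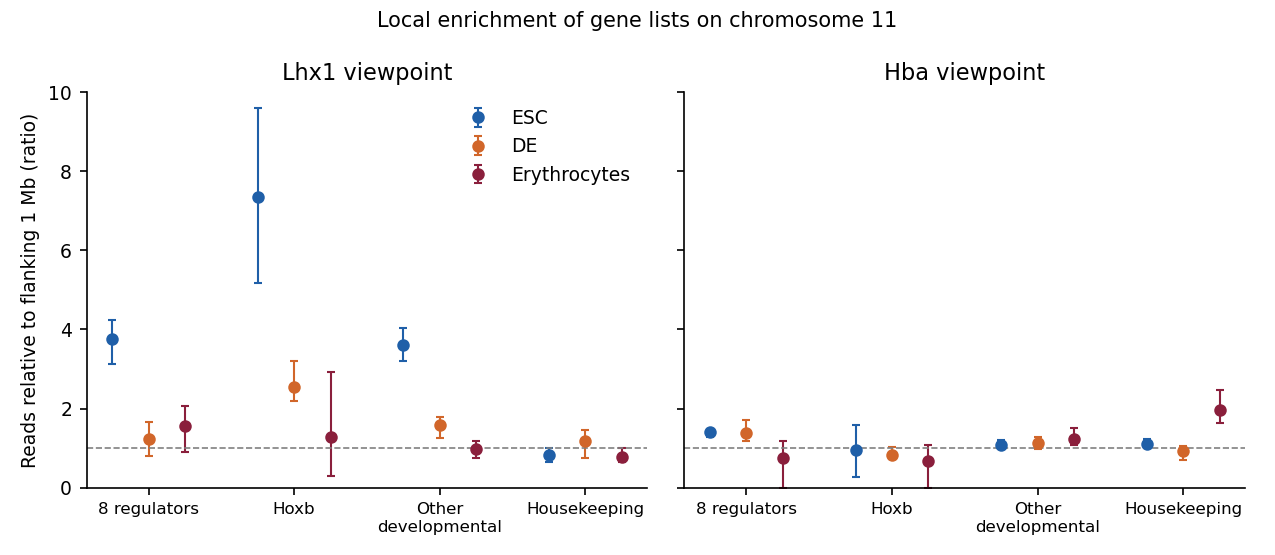
Reads per fragment in each gene list relative to the flanking 1 Mb (y axis, ratio; dashed line at 1) at the Lhx1 and Hba viewpoints. Points are means of 3 libraries and bars span the lowest to the highest library; in ESC at Lhx1 the 8 regulators average 3.75, Hoxb 7.35, other developmental genes 3.60 and housekeeping genes 0.825.

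Among 226 gene windows with at least 30 reads over the 9 libraries and more than 100 kb from every member, those whose level followed the pooled members most closely were *Shisa6* (Pearson r = 0.746 over 9 libraries), *Bzrap1* (0.711) and *Nsf* (0.654). These are descriptions over libraries of 3 cell types that share each library's depth. In DE against ESC, none of the 3 passed the test, with log2 differences of -1.001 ± 0.57, -1.33 ± 0.60 and -1.24 ± 0.58 (SE, limma, adjusted p = 0.407, 0.259 and 0.289).

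For scale, a developmental gene near *Lhx1* had a far higher level in ESC than any member. *Tbx4*, a T-box gene of hindlimb and lung development 1.361 Mb away, had 1340 ± 67.6 (SD, n = 3) reads per 100000 chromosome 11 interactions in ESC, 142 ± 15.4 in DE and 153 ± 150 in erythrocytes. The 8 far windows together had 276 ± 38.4 in ESC, 99.96 ± 35.9 in DE and 178 ± 54.9 in erythrocytes.

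From viewpoints on other chromosomes the member windows had few reads. Over the *Eomes*, *Foxa2*, Hbb and *Slc25a37* promoters, 16 of 3434 chromosome 11 reads in ESC fell in the windows, a mean share of 0.420% ± 0.295 (SD, n = 3). In DE it was 28 of 9871 reads (0.278% ± 0.0911) and in erythrocytes 10 of 4799 (0.119% ± 0.134), beside 0.273% of chromosome 11 fragments. The viewpoints were not alike: *Foxa2*, a forkhead gene of the endoderm, gave 8 of the 16 ESC reads. Its share was 0.914% ± 0.470 (SD, n = 3; 8 of 804 reads) in ESC, with libraries between 0.448% and 1.39%, 0.213% ± 0.197 (6 of 2419 reads) in DE and 0.0976% ± 0.169 (2 of 968 reads) in erythrocytes. All *Foxa2* libraries of ESC lay above those of DE and erythrocytes. The lowest ESC share (0.448%) was close to the highest DE share (0.387%), and with 8 ESC reads this order rests on single reads. In ESC the other viewpoints had mean shares between 0.217% and 0.333%. These shares were not subtracted from the *Lhx1* values. A separate trans level, a viewpoint's own mean reads per fragment on other chromosomes, was subtracted only as an alternative setting. Subtracting it at *Lhx1* left the pooled log2 ratio of DE to ESC at -1.71.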

How the data were processed

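NG Capture-C libraries (n = 3 per cell type) were grouped by the cell type and capture in their labels. The authors deposited, for every library and viewpoint, a signal per DpnII fragment that sums to 100000 interactions. Reads had been mapped with the authors' Capture-C scripts; Trim Galore and Bowtie are named in the submitters' processing notes, without versions, and duplicate handling is not stated in those sources. Every deposited signal value was a whole number of reads to a tolerance of 0.05, which gave back the read counts. In 1 DE library the Hba step was too close to 1 to be set apart, so no count test used it. All 171984 chromosome 11 fragment values matched the DpnII fragments of NCBIM37 (mm9), annotated with GENCODE M1. Reads can include PCR copies, so intervals cover counting error only.

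The members and lists were chosen with earlier results of these data known. Named windows were the members, up to 3 windows per direction past the threshold without overlap, and 3 by likeness; a gene named for reference near the viewpoint is not reported here. Gene windows were tested with limma 3.58.1 in R 4.3.3 with Benjamini-Hochberg adjustment. Alternatives used edgeR 4.0.16, DESeq2 1.42.0, and other scalings, pseudocounts, windows and totals. Scripts were tested on simulated data. Replicate numbers were not used to pair libraries in the main fits. Correlations of same-numbered deviations lay between -0.181 and 0.135, which at such low counts cannot exclude a pairing. Enhancer captures were not used here. The study describes the replicates as biological; the labels only number them.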

Additional observations from a re-analysis of the deposited data

How the results depend on the processing

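The pooled *Lhx1* share was lower in DE than in ESC under all 25 alternatives run (log2 ratio -2.24 to -1.15) and lower in erythrocytes than in ESC under all 25 (-6.42 to -0.64). Of 148 alternatives for pooled shares 137 moved the value by less than 1 SD. Zones of 5 kb around the start sites gave -2.24 (DE against ESC), -6.42 (erythrocytes against ESC) and -4.18 (erythrocytes against DE) at *Lhx1*, and -1.19 (DE against ESC) and a reversed 0.53 (erythrocytes against DE) at Hba. All chromosome 11 reads as the total gave -0.64 for erythrocytes against ESC at *Lhx1* and 0.56 for DE against ESC at Hba. Gene bodies alone gave -2.29 for erythrocytes against ESC at *Lhx1*. At Hba, leaving out *Meis1* gave -0.30 for DE against ESC, and subtracting the trans level gave -2.32 (erythrocytes against ESC) and -2.52 (erythrocytes against DE). Counting adjacent fragments as 1 site, chosen after seeing the data, left the *Lhx1* ratio of DE to ESC at -1.48.

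Counts of called windows moved more. For DE against ESC at *Lhx1* the count was 9 with edgeR, 2 with DESeq2, 11 with a pseudocount of 50, and 0 without a read minimum, with a pseudocount of 2, per far reads, with 3 cell types in the fit, or with the replicate number as a block. For erythrocytes against ESC it was 17 with edgeR, 14 with DESeq2, 6 with TMM scaling or DESeq2 size factors, 7 with a pseudocount of 2, 10 per far reads and 9 with 3 cell types, and for erythrocytes against DE 9 with edgeR and 12 with DESeq2. Without any one library these were 0 to 1, 0 to 1 and 0. The split of called windows at *Lhx1* moved with scaling and tool for erythrocytes against ESC: 1 lower and 0 higher as reported, 9 lower and 1 higher per far reads, but 6 lower and 11 higher with edgeR and 5 lower and 9 higher with DESeq2. At Hba, DE against ESC gave 13 (edgeR), 8 (DESeq2), 18 (pseudocount 50), 2 (per whole-genome reads) and 14 (replicate block); erythrocytes against ESC gave 159 (edgeR), 39 (TMM), 27 (size factors), 10 (pseudocount 2), 7 (per whole-genome reads), 0 (per far reads) and 172 (3 cell types); erythrocytes against DE gave 126 (edgeR), 0 (pseudocount 2), 8 (per whole-genome reads), 16 (per far reads) and 126 (3 cell types). Without any one library these ranged from 0 to 12, 0 to 199 and 0 to 187.

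Among members, *Sox9* in DE against ESC lost its call without a read minimum, with a pseudocount of 2, per far reads, with 3 cell types, under the replicate block, and without DE replicate 1, 2 or 3 or ESC replicate 2 or 3. In erythrocytes against DE, where no member was called, *Neurod2* reversed to 0.061 with edgeR, 0.054 with DESeq2 and 0.47 without erythrocyte replicate 2 (-0.56 to 0.47 over left-out libraries). There *Dlx4* reversed to -0.073 with TMM and -0.10 per far reads, and *Tbx21* to -0.20 with TMM, -0.088 with size factors, -0.27 per far reads and -0.19 without erythrocyte replicate 2 (-0.19 to 1.25 over left-out libraries). The causes were not tested. The block left the pooled *Lhx1* ratios at -1.69 (DE against ESC), -1.41 (erythrocytes against ESC) and 0.28 (erythrocytes against DE), and it was not run for erythrocytes at Hba, where 1 library had no reads. Depth limits single members: at *Lhx1* none has over 22 reads per cell type.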
